A study of Mus musculus with 47 samples.

Results

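Brown adipose tissue (BAT) of male C57BL/6J mice was compared between a methionine-restricted diet (MR) and a control diet (CON). All libraries labelled as BAT with either diet were taken, 6 MR and 6 CON, which are 12 of the 47 libraries of the series. The mice received their diet freely from 5 weeks of age for 11 weeks, were housed at 23 C and were fasted for 5 h before the tissues were taken, so the controls shared the housing, the fast and the age. The same animals also gave inguinal white fat (IWAT), liver and gastrocnemius muscle. Each BAT library came from 1 animal and is named by its diet and animal number. RNA of the dissected interscapular depot, 7 to 12 ng per library, was sequenced as 3' end tags (SOLiD SAGE), and each gene's tags were counted and scaled here to a common library total (CPM). The methionine content of the diets and the level of other nutrients are not given in the labels.

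Brown adipocytes burn fatty acids in mitochondria whose inner membrane holds the uncoupling protein Ucp1, so that the energy of respiration is released as heat. Noradrenaline from sympathetic nerves starts this through beta-adrenergic receptors, adenylyl cyclase and cyclic AMP, which free fatty acids from lipid droplets and raise the transcripts of thermogenic genes. The interscapular depot lies against skeletal muscle, and a dissected piece can hold adhering muscle as well as vessels, nerve, blood cells and white fat.

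The BAT libraries held 5252688 to 13117537 tags and 14161 to 16406 detected genes, and the median Spearman correlation of a library with the other BAT libraries was 0.909 to 0.953. A gene with 0 tags could still have had 0.207 to 0.513 CPM (3 tags), a floor that differs by library and covers counting error alone. The defining transcripts of brown fat were present in every library, with Ucp1 at 3411 to 6060 CPM in MR and 1764 to 3574 CPM in CON. Cidea, a lipid droplet protein of brown adipocytes, had 58.9 to 96.2 CPM in MR and 43.8 to 92.8 CPM in CON, and the brown fat regulator Prdm16 had 20.1 to 28.3 CPM in MR and 18.2 to 36.5 CPM in CON.

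Skeletal muscle transcripts differed widely among the libraries of both diets. The 27 markers of skeletal muscle, all of them detected, summed to 6153, 9152, 859, 5516, 13842 and 8619 CPM in MR3101, MR3102, MR3104, MR3109, MR3113 and MR3116. In CON3103, CON3106, CON3107, CON3112, CON3114 and CON3115 they summed to 586, 7356, 445, 34196, 16917 and 569 CPM. CON3103, CON3107, CON3115 and MR3104 were low and CON3112 was the highest, and the diets overlapped. Measured against the same markers in control gastrocnemius, the median marker stood at 0.278 to 6.80 percent of its muscle level in MR and at 0.0584 to 16.2 percent in CON. The mean log2 CPM of the markers was 5.94 ± 1.54 in MR and 4.84 ± 3.36 in CON (SD, n = 6 each), a difference of 1.10 that was within the spread (two-sided exact permutation test over 924 assignments, p = 0.478). Markers of slow fibres stood at 4.10 ± 1.65 in MR and 3.94 ± 2.84 in CON (exact permutation p = 0.905).

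The direction of the muscle difference depended on how libraries were weighed. On the mean of logs the level was higher in MR, whereas the fitted log2 fold change was negative for 27 of 27 markers (median -0.68, range -1.30 to -0.01). Without CON3112, the library with the most muscle tags, the median was 0.36. In the edgeR fit 0 of the 27 markers passed, where 1.11 percent of all tested genes did. None had an unadjusted p under 0.05, and DESeq2 and limma voom called 0. Creatine kinase (Ckm), the most abundant marker, had 233, 2272 and 4369 CPM as the lowest, median and highest in MR, against 52.8, 458 and 10893 CPM in CON. Its log2 fold change was -0.38 with a standard error of 1.11. With a spread this wide, the lack of calls does not show that the diets had equal muscle content.

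Other cell types stood apart mainly in CON3106. Its hepatocyte markers had a mean log2 CPM of 6.26, against 1.19 to 2.20 in MR libraries and at most 2.21 in the other CON libraries, and its lymphocyte markers reached 3.52, against at most -0.52 elsewhere in CON. The liver protein Apoa1 had 371 CPM and the B cell receptor component Cd79a 230 CPM in CON3106, where no other CON library exceeded 6.31 and 3.06 CPM. The 20 hepatocyte markers summed to 710.5 to 1047 CPM in MR and 1093 to 8146 CPM in CON, a sum that includes haptoglobin (Hp), which fat also makes. The 22 macrophage markers summed to 85.9 to 120.3 CPM in MR and 120.6 to 628 CPM in CON, so these ranges met without overlapping. The 18 lymphocyte markers of the table summed to 6.69 to 15.003 CPM in MR and 6.66 to 582 CPM in CON, with 1 of them at 0 in every library. In bulk tissue, fewer cells of a type and less RNA per cell cannot be told apart.

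**Figure D1:**
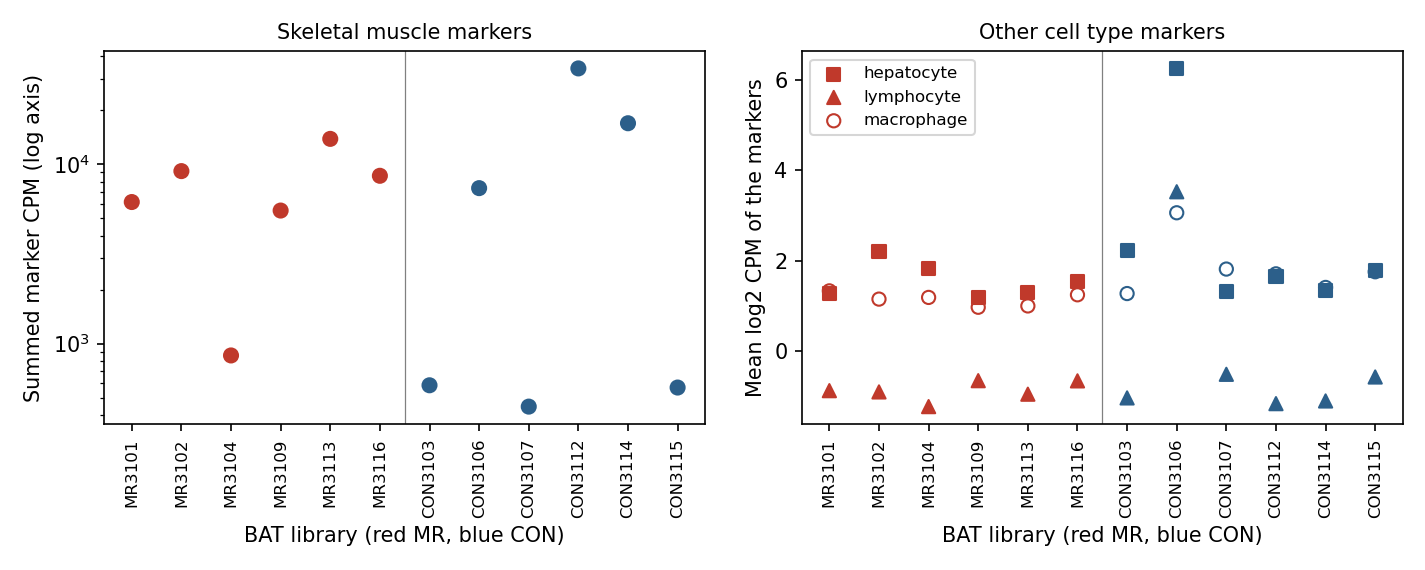
Marker levels in each BAT library, MR left (red) and CON right (blue). The left panel gives the summed CPM of 27 skeletal muscle markers on a log axis, from 445 CPM in CON3107 to 34196 CPM in CON3112. The right panel gives the mean log2 CPM of hepatocyte (squares), lymphocyte (triangles) and macrophage (open circles) markers, where CON3106 is the highest for all 3.

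About 1 percent of the genes tested passed the threshold for a difference between the diets, which is not the share of genes that differ. Of 10791 genes tested with the quasi-likelihood test of edgeR, 120 (1.11 percent) passed a Benjamini-Hochberg adjusted p of 0.05, 62 (0.575 percent) higher in MR and 58 (0.537 percent) lower. The median log2 fold change (MR over CON) of all tested genes was 0.00. An unadjusted p under 0.05 was found for 1466 of the 10791 genes, the background for such counts in the gene lists below. For 209 genes (1.94 percent) the ranges of the 6 MR and 6 CON libraries did not overlap, and 103 of the 120 called genes were among them. The count of 120 depended on single libraries and on the method. It was 50 without MR3104, 63 without CON3114, 66 without MR3101 or CON3112, 71 without CON3103 and 79 without MR3102. DESeq2, run without the edgeR filter, called 326 of the 18019 genes it fitted. In edgeR the hepatocyte level as a covariate left 75 and the macrophage level 20.

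With the muscle marker level of each library as a covariate, 193 genes passed (1.79 percent), 94 (0.871 percent) higher and 99 (0.917 percent) lower in MR. Of the 120 genes called without it, 118 were called with it, 2 were not and 75 were added. Both genes that lost the call stood close to the threshold. They were Gcap14 (log2 fold change -0.69 ± 0.15, SE, adjusted p = 0.0456, against -0.67 ± 0.16 and 0.0540 with the muscle level) and the kinesin gene Kifc3 (-0.97 ± 0.22, adjusted p = 0.0488, against -0.84 ± 0.21 and 0.0595). The number gained was itself sensitive to single libraries. With the muscle level in the fit, 95 genes passed without CON3112, 111 without MR3101, 114 without CON3103 and 121 without CON3106.

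For each gene the level that muscle RNA would bring was set from the gastrocnemius libraries and the muscle share of each BAT library. In 165 of the tested genes it came to at least 50 percent of the mean BAT level. Of these 165 genes, 0 were called without the muscle level and 2 with it (Abcb4 and Mllt11), 159 had a negative log2 fold change, and the median was -0.69. That median was -0.21 with the muscle level in the fit and 0.14 without CON3112. Of the 881 genes where muscle would bring at least 10 percent, 5 were called, against 120 (1.11 percent) of all 10791 tested genes. The expected level exceeded the whole BAT level for some of the 165 genes, as for Fmod (442 percent) and Actc1 (368 percent). For such genes the proportions of gastrocnemius cannot hold in BAT, so the count of 165 is approximate. The interscapular depot borders muscles other than the gastrocnemius, and their transcripts were not measured.

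The largest increases included a lysophospholipid transporter, a secreted growth factor, a nucleotide reductase, an inositol phosphate synthase and an adenylyl cyclase. The genes described here were called without and with the muscle level and in each of the 12 fits that leave out 1 library. Such genes numbered 44 (0.408 percent of those tested), 21 higher and 23 lower in MR, and since this persistence chose them it is not a further result. Mfsd2a, a membrane transporter of lysophosphatidylcholine (GRCm38 chromosome 4, 122946850 to 122961194), had 1.597, 3.25 and 10.2 CPM as the lowest, median and highest in MR, against 0, 0.0804 and 0.689 CPM in CON. Every MR library was above every CON library. The log2 fold change was 4.11 ± 0.70 (SE, adjusted p = 0.0120). Its size is uncertain because the 6 CON libraries held 2, 10, 0, 0, 0 and 1 tags, and it ran from 3.59 to 6.39 over the other settings.

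Bmp8b, a bone morphogenetic protein secreted by brown adipocytes (chromosome 4, 123104308 to 123126094), had 2.84, 4.58 and 12.0 CPM in MR, against 0.217, 0.638 and 1.13 CPM in CON. The groups did not overlap, MR3116 was the highest, and Bmp8b rose by 3.09 ± 0.41 on the log2 scale (SE, adjusted p = 0.00308). Gmpr, the reductase that turns guanosine monophosphate into inosine monophosphate (chromosome 13, 45507428 to 45546386), had 291, 311 and 682 CPM in MR and 47.5, 74.1 and 98.7 CPM in CON. It rose 5.03-fold on mean CPM, again with MR3116 the highest. Isyna1, which makes the inositol phosphate from which inositol lipids are built (chromosome 8, 70594481 to 70597290), had 30.1, 49.2 and 73.3 CPM in MR, against 5.88, 10.6 and 12.5 CPM in CON. The 6 MR libraries lay well above the 6 CON libraries (log2 fold change 2.31 ± 0.24, adjusted p = 0.00064).

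Adcy3, an adenylyl cyclase that makes cyclic AMP (chromosome 12, 4133116 to 4213525), had 67.4, 99.1 and 141 CPM in MR, against 25.9, 34.0 and 44.2 CPM in CON. It rose by 1.51 ± 0.19 on the log2 scale with no overlap between the diets (adjusted p = 0.00284). Gas1, a cell surface protein that acts with hedgehog receptors, had 32.8 to 68.5 CPM in MR and 8.89 to 21.4 CPM in CON, and Dusp4, a phosphatase of MAP kinases, had 15.7 to 44.7 CPM in MR and 6.74 to 9.98 CPM in CON. Ttc25, a protein of ciliary dynein docking, the F-box gene Fbxl16 and the neuronal differentiation gene Cend1 rose by 1.72 ± 0.20, 1.61 ± 0.24 and 1.49 ± 0.23. Orm3, of the orosomucoid family of plasma glycoproteins, had 55.4 to 92.4 CPM in MR and 14.7 to 38.2 CPM in CON, and tags of its close copies may be shared. For these 6 genes, too, every MR library was above every CON library.

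The largest decreases included a klotho family protein, a prostaglandin synthase and carriers of monocarboxylates and organic cations. Lctl, a lactase-like membrane protein of the klotho family (chromosome 9, 64117123 to 64138118), had 4.90, 7.26 and 9.51 CPM in MR, against 26.9, 43.0 and 68.8 CPM in CON. It fell by 2.62 ± 0.24 on the log2 scale, with the smallest adjusted p of the 120 called genes (0.000327). Tmem45b, a transmembrane protein (chromosome 9, 31426196 to 31464238), had 20.7, 48.9 and 59.4 CPM in MR, against 197, 270 and 339 CPM in CON. The groups lay far apart. The fold change was 0.162 on mean CPM (log2 -2.63 ± 0.27, adjusted p = 0.00064).

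Ptgds, the lipocalin-type synthase of prostaglandin D2 (chromosome 2, 25466709 to 25470110), had 1.42, 2.02 and 2.70 CPM in MR, against 7.39, 11.1 and 30.9 CPM in CON (log2 fold change -2.79 ± 0.36, adjusted p = 0.00284). Among transporters, the monocarboxylate carrier Slc16a7 had 1.93 to 3.87 CPM in MR and 7.24 to 16.3 CPM in CON. The organic cation transporter Slc22a2 had 0.846 to 2.53 CPM in MR and 3.79 to 7.86 CPM in CON, and the choline transporter-like gene Slc44a3 had 2.23 to 4.90 CPM in MR and 7.23 to 15.5 CPM in CON. All 3 transporter genes fell without overlap between the diets. Ccdc80, a secreted matrix protein of adipocytes, and Fam20c, a kinase of secreted proteins, fell by 1.72 ± 0.24 and 1.74 ± 0.27. Hspa12a of the heat shock protein 70 family, the myosin gene Myo5c, the Rac-regulating gene Chn1 and the kinase gene Stk39 fell by 2.24 ± 0.30, 2.07 ± 0.37, 1.81 ± 0.28 and 1.78 ± 0.27. For the myosin gene Myo5c the muscle level moved the value most among these 12 genes, to -1.71 ± 0.27 (adjusted p = 0.00673).

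Of these 24 leading genes, 10 lost the call with the macrophage marker level as a covariate (edgeR adjusted p = 0.05 to 0.109), and Dusp4 and Gas1 lost it without both CON3106 and CON3112 (adjusted p = 0.0643 and 0.0504). The macrophage level (mean log2 CPM) was 0.965 to 1.33 in MR and 1.27 to 3.06 in CON, and its part in these values cannot be told apart from that of the diet.

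**Figure D2:**
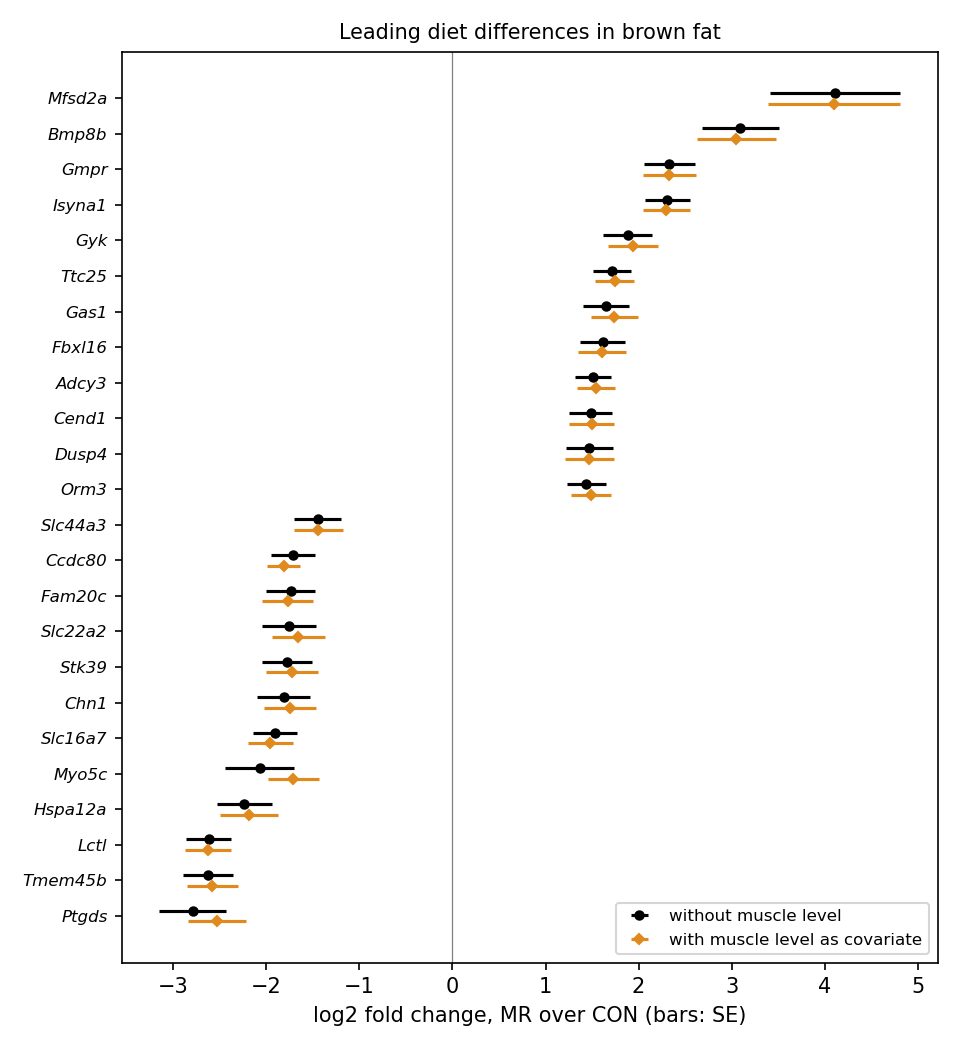
Log2 fold change, MR over CON, of the 12 largest increases and 12 largest decreases in BAT, without (black) and with (orange) the muscle marker level as a covariate. Bars are standard errors (n = 6 each). The values of the 2 fits lie close together, the widest gap being that of Myo5c (-2.07 against -1.71). The genes were chosen for a call in both fits, so some of this closeness is built in.

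The thermogenic genes were higher in part. This and the other gene lists were chosen with earlier results of these data known. Their counts beside the share of all tested genes are therefore descriptive and not a test. Gyk also counts under triglyceride synthesis and Bmp8b under secreted factors. Of 30 listed genes, 29 were tested, and edgeR called 5 higher in MR and 0 lower, against 0.575 percent of all tested genes called higher. DESeq2 called 8 higher and 1 lower of 30, against 176 and 150 of the 18019 genes it fitted. Limma voom called 6 and 0 of 29, against 73 and 64 of 10791. DESeq2 was run without the edgeR filter, so many of its lists hold more genes than were tested in edgeR. An unadjusted p under 0.05 was found for 10 of the 29, against 1466 of all 10791 tested genes. The 5 were Bmp8b, Gyk, Elovl3, Dio2 and Kcnk3. In the fit with the muscle level 8 were called higher, against 0.871 percent of all tested genes, the added ones being Ucp1, Ppargc1a and Zic1. The median log2 fold change of the 29 genes was 0.25, and 0.36 with the muscle level, against 0.00 and 0.02 over all tested genes, and 21 of the 29 were positive. The median was 0.06 with 1 call when the macrophage level was the covariate, and 0.11 with 2 calls without CON3106 and CON3112. Genes near 0 were among them, and beta-adrenergic receptor 3 (Adrb3) stood at -0.02 ± 0.23, Prdm16 at -0.01 ± 0.18 and Cidea at 0.12 ± 0.21 (SE). Ppara, a receptor of fatty acids that controls their oxidation, had the lowest value of the list at -0.77 ± 0.23, which missed the threshold (adjusted p = 0.157).

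Dio2 codes for the type 2 deiodinase, which makes active thyroid hormone inside brown adipocytes, and its transcript is known to be raised by cyclic AMP. Gyk, named Gk in newer annotation, codes for glycerol kinase, which lets brown adipocytes reuse glycerol for triglycerides. The stretch from 250 bases before to 50 after the annotated start is shown for both (RefSeq, GRCm38.p6), because both genes rose and both stretches hold TGACGT, the first bases of the cyclic AMP response element TGACGTCA. Capitals mark the full element in Dio2 (chr12:90738989-90739288, minus strand), starting 95 bases before the start. In Gyk (chrX:85776770-85777069, minus strand) they mark CACGTG, an E-box, from 58 and TGACGT from 4 bases before the start.
Dio2: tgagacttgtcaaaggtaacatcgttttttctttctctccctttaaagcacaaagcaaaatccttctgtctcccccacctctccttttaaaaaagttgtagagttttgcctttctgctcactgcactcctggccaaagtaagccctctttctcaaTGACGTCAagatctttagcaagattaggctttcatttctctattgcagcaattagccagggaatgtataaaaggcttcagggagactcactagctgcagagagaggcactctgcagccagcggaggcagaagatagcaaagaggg
Gyk: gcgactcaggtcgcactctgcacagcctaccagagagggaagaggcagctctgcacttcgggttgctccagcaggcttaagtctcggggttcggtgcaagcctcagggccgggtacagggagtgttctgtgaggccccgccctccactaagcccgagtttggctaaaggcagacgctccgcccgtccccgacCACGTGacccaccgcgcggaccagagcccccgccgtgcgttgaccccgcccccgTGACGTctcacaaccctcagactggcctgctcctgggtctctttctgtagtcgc
The full element was found in 2.03 percent of the 27025 genes with a promoter in the table, on either strand, and TGACGT, which overlaps it, in 8.37 percent. Of the 120 called genes 89 had a promoter there, 50 higher and 39 lower in MR. The full element was in 1 of the 50 (Dio2) and 1 of the 39 (Mcam), TGACGT in 6 and 1, and CACGTG, present in 8.09 percent of all promoters, in 5 and 6. A match describes letters only and is not evidence of binding.

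Dio2 had 21.6, 26.1 and 60.2 CPM as the lowest, median and highest in MR, against 8.68, 13.5 and 14.6 CPM in CON. MR3116 was far above the other MR libraries, which lay between 21.6 and 26.5 CPM, and the diets did not overlap. The log2 fold change was 1.31 ± 0.25 (SE, edgeR adjusted p = 0.0226), and the call was lost without CON3107 (adjusted p = 0.0503). Including the muscle level, it was 1.30 ± 0.26 (adjusted p = 0.0226), lost without CON3106 or CON3112 (adjusted p = 0.0579 and 0.0752).

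Gyk had 287, 341 and 737 CPM in MR, against 104, 126 and 142 CPM in CON. MR3109 and MR3116 had 737 and 731 CPM and the other 4 MR libraries 287 to 343 CPM, all above CON (log2 fold change 1.88 ± 0.26, adjusted p = 0.00308). Elovl3, which elongates fatty acids in brown fat, had 422, 673 and 1026 CPM in MR, against 167, 275 and 350 CPM in CON. It rose by 1.43 ± 0.25 on the log2 scale without and 1.54 ± 0.26 with the muscle level (adjusted p = 0.0131 and 0.00875). The second call was lost without CON3112 (adjusted p = 0.0541), and the first without both CON3106 and CON3112 (0.0701). Kcnk3, a potassium channel of brown adipocytes, had 170 to 273 CPM in MR and 86.7 to 176 CPM in CON, which overlapped. Its call (0.85 ± 0.18, adjusted p = 0.0414) remained in 2 of the 12 fits that leave out 1 library, those without MR3102 or CON3107, and in the other 10 the adjusted p was 0.0673 to 0.103. Including the muscle level (0.93 ± 0.18, adjusted p = 0.0198), the call remained in 10 of 12 and was lost without CON3106 or CON3112 (adjusted p = 0.0537 and 0.0905).

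Ucp1 (chromosome 8, 83290348 to 83298456) had 4724, 5605, 6060, 3411, 4324 and 5096 CPM in MR3101, MR3102, MR3104, MR3109, MR3113 and MR3116. It had 3030, 1826, 3124, 1764, 2798 and 3574 CPM in CON3103, CON3106, CON3107, CON3112, CON3114 and CON3115. Only MR3109 and CON3115 overlapped. The log2 fold change was 0.86 ± 0.21 (SE), which missed the threshold (adjusted p = 0.0717). Once the muscle level was in the fit it was 0.99 ± 0.18 and passed (edgeR adjusted p = 0.0145), in 11 of the 12 fits that leave out 1 library but not without CON3112 (adjusted p = 0.0723). Within CON, the 3 libraries with the fewest muscle tags (CON3103, CON3107 and CON3115) had the 3 highest Ucp1 values, and CON3112, with the most, had the lowest. The MR libraries followed that order in part. MR3104, with the fewest muscle tags, had the highest Ucp1, and MR3113, with the most, the second lowest. Against it, MR3109, with the second fewest muscle tags, had the lowest Ucp1 and MR3102, with the second most, the second highest. With the macrophage level as the covariate the estimate was 0.66 (adjusted p = 0.509).

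Ppargc1a, a coactivator of genes for mitochondria, had 57.2, 72.5 and 84.7 CPM in MR, against 28.02, 40.3 and 59.7 CPM in CON. All MR libraries but MR3109 were above every CON library. It stood at 0.77 ± 0.18 (adjusted p = 0.0512) and passed with the muscle level (0.84 ± 0.18, adjusted p = 0.0328), a call that remained in 3 of 12 fits, those without MR3104, MR3109 or CON3115 (adjusted p = 0.0213 to 0.0875 over the 12). Zic1, a transcription factor that marks brown against white adipocytes, had 8.91, 16.1 and 30.7 CPM in MR, against 2.27, 7.005 and 11.6 CPM in CON. It passed with the muscle level (1.48 ± 0.32, adjusted p = 0.0314, against 1.25 ± 0.36 and 0.142 without it) and kept the call in 2 of 12 fits, those without MR3109 or MR3116.

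**Figure D3:**
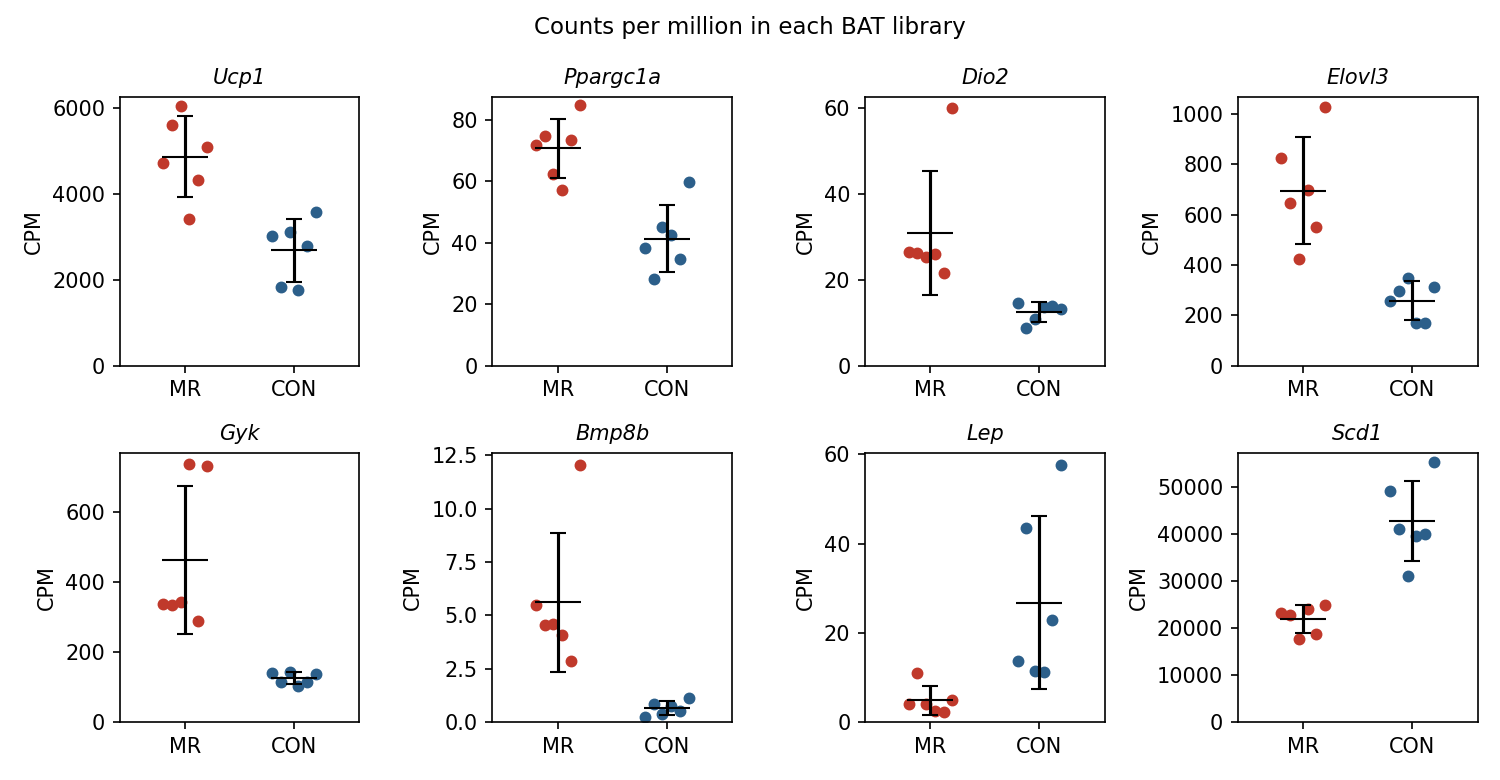
CPM of 8 transcripts in each BAT library, MR (red) left of CON (blue), with mean and SD (n = 6 each). Dio2, Elovl3, Gyk, Bmp8b, Lep and Scd1 show no overlap between the diets, whereas Ucp1 and Ppargc1a overlap through MR3109 and CON3115 alone.

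**Figure D4:**
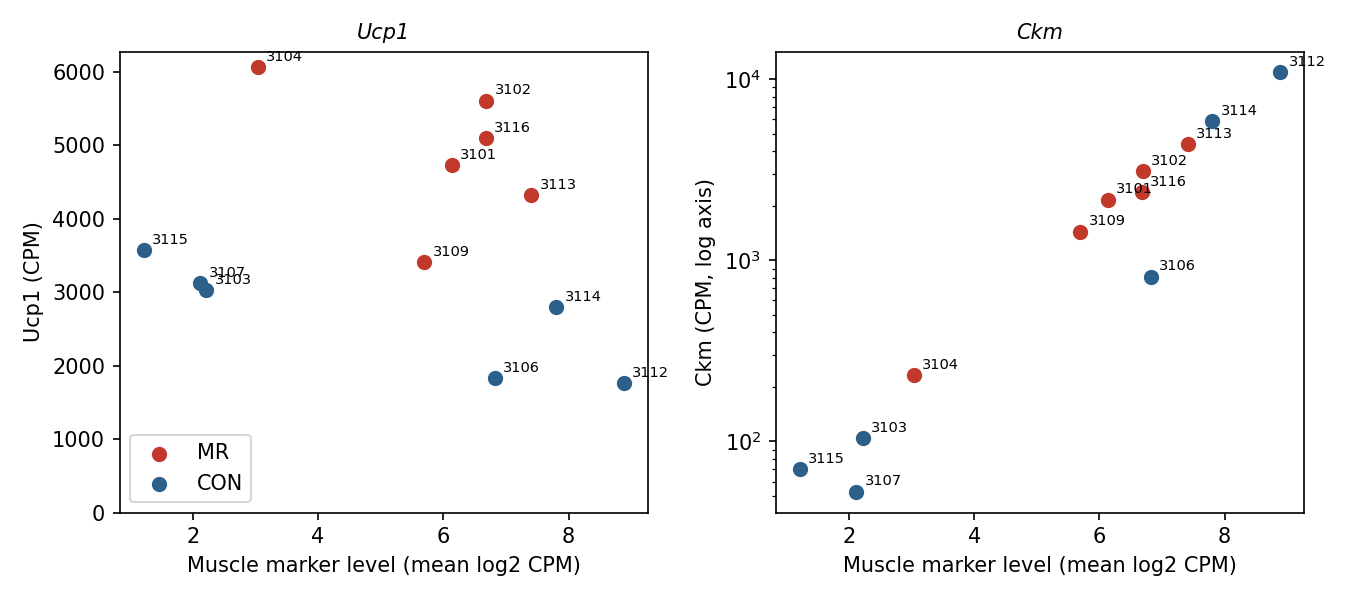
Ucp1 (left, linear axis) and the muscle creatine kinase Ckm (right, log axis) in CPM against the muscle marker level of the same library (mean log2 CPM), with MR red, CON blue and animal numbers beside the points. Ckm is 1 of the 27 markers that make up the level and rises with it in both diets. The 6 MR libraries lie between 3411 and 6060 CPM of Ucp1, and CON3106 and CON3112 at 1826 and 1764 CPM.

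No tested gene of the respiratory machinery passed, where edgeR called 1.11 percent of all tested genes. At that share 0 calls do not set lists of this size apart. Of 44 tested genes of oxidative phosphorylation edgeR, DESeq2 and limma voom called 0 and 0 had an unadjusted p under 0.05, with a median log2 fold change of 0.02 (0.09 with the muscle level) and a range of -0.85 to 0.42. Of 21 tested citric acid cycle genes the same tools called 0 and 3 had an unadjusted p under 0.05 (median -0.02). The mitochondrial subunits Ndufs8 of complex I and Idh3a of isocitrate dehydrogenase stood at 0.42 ± 0.23 and 0.44 ± 0.18 (SE, adjusted p = 0.455 and 0.292).

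In lipid metabolism, a kinase and an acyltransferase of glycerolipid assembly rose, while a desaturase and the acetyl-CoA synthetase of the cytosol fell. Of 16 tested genes of triglyceride synthesis 6 had an unadjusted p under 0.05. Over all tested genes edgeR called 0.575 percent higher and 0.537 percent lower. In this list it called 2 higher, Gyk and Gpam, and 0 lower, as did DESeq2 and limma voom. Both calls were lost with the macrophage level as the covariate (adjusted p = 0.0574 for Gyk and 0.199 for Gpam), and that of Gpam without CON3106 and CON3112 (0.0946). Gpam, the mitochondrial acyltransferase that starts glycerolipid synthesis (chromosome 19, 55067635 to 55127319), had 49.98, 64.8 and 112 CPM in MR, against 21.9, 27.3 and 37.0 CPM in CON. MR3109 was the highest, the diets did not overlap, and the log2 fold change was 1.29 ± 0.22 (SE, adjusted p = 0.0120). Dgat2, which makes triglyceride from diglyceride, stood at -0.62 ± 0.24 (adjusted p = 0.275).

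Of 18 tested lipogenesis genes edgeR called 0 higher and 2 lower, against 0.537 percent of all tested genes called lower. DESeq2 called 0 and 4 of 21, and limma voom 0 and 2 of 18, and 6 of the 18 had an unadjusted p under 0.05 in edgeR. None was called lower without MR3104, with no filter, without CON3106 and CON3112, or with the macrophage level, where Scd1 and Acss2 had an adjusted p of 0.117 and 0.203. Scd1, the stearoyl-CoA desaturase (chromosome 19, 44394450 to 44407709), had 17519, 22904 and 24908 CPM in MR, against 30973, 40444 and 55309 CPM in CON. Every MR library was below every CON library. The log2 fold change was -0.97 ± 0.18 (adjusted p = 0.0176, and 0.0562 without MR3104), and with the muscle level -0.94 ± 0.19 (adjusted p = 0.0200, lost without MR3104 or, at 0.0708, without CON3112). Acss2 had 329 to 584 CPM in MR and 701 to 1065 CPM in CON (-0.89 ± 0.19, adjusted p = 0.0354). Its call was lost without any 1 of MR3102, MR3104, MR3116, CON3103, CON3106, CON3107, CON3112 or CON3114 (adjusted p = 0.0523 to 0.0884). The central genes of fatty acid synthesis showed smaller values that did not pass, with Fasn at 0.03 ± 0.19, Acly at -0.03 ± 0.23 and Acaca at -0.09 ± 0.26.

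In fat breakdown and use each list held 1 called gene, where 0.575 percent of all tested genes were called higher and 0.537 percent lower. A single call says little about a list of this size. In lipolysis and the lipid droplet 1 of 14 tested genes rose, Abhd5, the activator of the triglyceride lipase Pnpla2. Abhd5 had 117 to 170 CPM in MR and 69.2 to 103 CPM in CON (0.75 ± 0.15, adjusted p = 0.0263). It lost the call without MR3101, MR3104, MR3116, CON3103, CON3106, CON3107, CON3112 or CON3114 (adjusted p = 0.0528 to 0.0724), whereas with the muscle level it was called in the full fit (0.81 ± 0.14, adjusted p = 0.0101) and in all 12 fits that leave out 1 library. The lipases Pnpla2 and Lipe stood at -0.02 ± 0.14 and -0.15 ± 0.17. Of 17 tested genes of fatty acid uptake and activation 1 rose, Mfsd2a, and 14 were positive (median 0.22). Of 27 tested genes of fatty acid oxidation 1 fell, Abcd2, a carrier of long fatty acids into peroxisomes. Abcd2 had 44.0, 53.6 and 66.9 CPM in MR, against 102, 125 and 205 CPM in CON, with no overlap (-1.31 ± 0.18, adjusted p = 0.00323, and 0.0574 with the macrophage level).

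Among secreted factors, leptin and the prostaglandin synthase fell and Bmp8b rose, 3 of 17 tested genes, where 1.11 percent of all tested genes were called. The list was chosen with earlier results known, so this count is descriptive. Leptin (Lep), the hormone by which fat cells report their stores (chromosome 6, 29060221 to 29073876), is more abundant in white than in brown fat. The same stretch around its start (RefSeq, GRCm38.p6, chr6:29059971-29060270, plus strand) is shown because it holds TTGCNCAA, the palindrome read by C/EBP factors of adipocytes, which capitals mark from 55 bases before the start.
Lep: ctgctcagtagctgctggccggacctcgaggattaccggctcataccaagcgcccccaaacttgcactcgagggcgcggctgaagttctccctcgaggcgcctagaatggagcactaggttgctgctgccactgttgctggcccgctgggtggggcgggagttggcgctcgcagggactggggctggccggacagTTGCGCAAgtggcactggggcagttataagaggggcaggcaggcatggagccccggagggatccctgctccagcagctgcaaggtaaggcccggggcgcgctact
TTGCNCAA, searched on both strands, was in 3.37 percent of the 27025 genes with a promoter, in 4 of the 50 matched genes higher in MR (Gmpr, Mbnl3, Orm3 and Sema4a) and in 2 of the 39 lower (Dram1 and Lep).

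Lep had 4.04, 11.1, 4.01, 2.54, 2.32 and 4.90 CPM in MR3101, MR3102, MR3104, MR3109, MR3113 and MR3116. It had 13.6, 43.6, 11.5, 11.3, 22.9 and 57.6 CPM in CON3103, CON3106, CON3107, CON3112, CON3114 and CON3115. The diets did not overlap, though MR3102 came close to the lowest CON libraries. The log2 fold change was -2.46 ± 0.50 (adjusted p = 0.0318) and -2.39 ± 0.51 with the muscle level (adjusted p = 0.0289). Without the muscle level the call was lost without any 1 of MR3101, MR3104, MR3109, MR3113, MR3116, CON3106, CON3114 or CON3115 (adjusted p = 0.0510 to 0.0810), and including it the call remained in 6 of 12. Of 7 tested white adipocyte markers edgeR called Lep alone. DESeq2 and edgeR with no filter each called 2 lower of 11, and edgeR without CON3107 called 2 lower of 8. Lep included, 6 of the 7 were negative. Their median was -0.72, but 0.07 without CON3106 and CON3112. The 11 white markers of the table summed to 29.9 to 69.5 CPM in MR and 28.1 to 187 CPM in CON. Adiponectin (Adipoq), a product of both kinds of adipocyte, stood at 0.24 ± 0.18 (adjusted p = 0.616).

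Among genes tied to amino acid supply edgeR called 1 in brown fat, where it called 1.11 percent of all tested genes. Part of them had too few tags to be tested. Of 33 listed genes of the ATF4 amino acid response edgeR and limma voom tested 20 and called 0, and DESeq2 called 1 of 33. In the edgeR fit 5 of the 20 had an unadjusted p under 0.05 (median log2 fold change 0.02, range -0.80 to 1.77). The asparagine synthetase Asns had 142 to 297 CPM in MR and 117 to 200 CPM in CON (0.24 ± 0.20, adjusted p = 0.666), and the serine enzyme Psat1 stood at -0.53 ± 0.58 (adjusted p = 0.749), and at 0.40 without CON3106, where it was at 25.0 CPM. Fgf21, a hormone induced by amino acid shortage in liver, had 2 to 9 tags in MR libraries and 2 to 11 in CON libraries, and Phgdh 0 to 2 in MR and 0 to 9 in CON, too few to be tested. Of 23 tested genes of methionine and sulfur amino acid metabolism 0 rose and 1 fell, against 0.537 percent of all tested genes called lower. This was Gamt, which uses S-adenosylmethionine to make creatine, at 0.846 to 2.84 CPM in MR and 3.66 to 6.96 CPM in CON (-1.50 ± 0.30, adjusted p = 0.0302). It lost the call without MR3101, MR3104, CON3106, CON3112, CON3114 or CON3115 (adjusted p = 0.0510 to 0.0765). It stood at -1.61 ± 0.28 with the muscle level (adjusted p = 0.0107), called in all 12 fits that leave out 1 library.

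The calls among stress, sterol and clock genes were too few to set these lists apart from all tested genes, of which edgeR called 1.11 percent. Of 17 tested genes of the unfolded protein response, 21 of cholesterol synthesis and 15 of the circadian clock, edgeR and limma voom called 0 in each. DESeq2 called 0 of 20, 2 of 22 and 1 of 18. In edgeR the medians were 0.09, 0.19 and -0.26, and 1, 6 and 4 genes had an unadjusted p under 0.05. The methyl sterol oxidase Sc4mol (0.81 ± 0.18, adjusted p = 0.0516) passed with the muscle level (0.83 ± 0.20, adjusted p = 0.0471), a call that remained in 2 of the 12 fits that leave out 1 library, those without MR3109 or MR3113 (adjusted p = 0.0339 to 0.173 over the 12). Of 22 tested NRF2 targets and glutathione transferases 1 fell, the microsomal transferase Mgst2, at 5.94 to 23.5 CPM in MR and 20.3 to 69.9 CPM in CON (-1.88 ± 0.36, adjusted p = 0.0238, lost without MR3101, MR3102, MR3104 or CON3112, adjusted p = 0.0576 to 0.0585). Including the muscle level, it remained in all 12 fits. Gsta3 was added with the muscle level (-2.40 ± 0.57, adjusted p = 0.0471) and remained in 2 of 12, those without CON3112 or CON3114, and CON3106 alone had 186 CPM of it, against at most 29.2 in any other CON library. Of 23 tested genes of glycolysis and glucose transport 1 fell, Slc16a7, and lactate dehydrogenase Ldha stood at 0.78 ± 0.25 (adjusted p = 0.177).

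Markers of other cells leaned to lower values in MR without passing. The 14 tested macrophage markers were all negative (median -0.89, range -1.94 to -0.50). Of these edgeR and limma voom called 0, and 11 had an unadjusted p under 0.05 in edgeR. DESeq2 called 3 of 22. In the fit with the muscle level, where 0.917 percent of all tested genes were called lower, 2 of these markers were called. They were Ccl6 (-1.71 ± 0.36, adjusted p = 0.0267) and Ctss (-2.01 ± 0.47, adjusted p = 0.0438). Without CON3106 the median was -0.55 and, with the muscle level, 0 markers were called (adjusted p = 0.0667 for Ccl6 and 0.0856 for Ctss). Over the 12 fits with 1 library left out, the 2 calls remained in 7 and 2. Of 28 tested matrix genes 26 were negative (median -0.57), against 5373 of 10791 among all tested genes. Yet edgeR called 0 lower and 1 higher, against 0.537 and 0.575 percent of all tested genes. DESeq2 called 3 lower and 1 higher, limma voom 0 and 1, and 13 had an unadjusted p under 0.05. That gene was Loxl1, which cross-links elastin, at 82.7 to 153 CPM in MR and 37.1 to 65.2 CPM in CON (1.08 ± 0.20, adjusted p = 0.0187). It lost the call without CON3103, CON3112 or CON3114 (adjusted p = 0.0521 to 0.0552). Including the muscle level, 4 matrix genes were called lower, but 1 without CON3106, where the median was -0.43. With the macrophage level as the covariate the matrix median was -0.22 and edgeR called 0 matrix genes, so that the call of Loxl1 was lost. With the hepatocyte level the median was -0.37, with 1 gene called higher and 0 lower. The part of other cell types in these differences cannot be told apart from that of the diet. Of 10 tested hepatocyte markers edgeR called 0, and 8 had an unadjusted p under 0.05 (median -2.83, and -0.26 without CON3106). DESeq2 called 1 of 20. All 3 tools called 0 endothelial, Schwann cell, smooth muscle, erythroid, lymphocyte and proliferation genes. In edgeR 16, 5, 9, 3, 2 and 5 of them were tested, and 0, 1, 0, 0, 2 and 1 had an unadjusted p under 0.05.

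**Figure D5:**
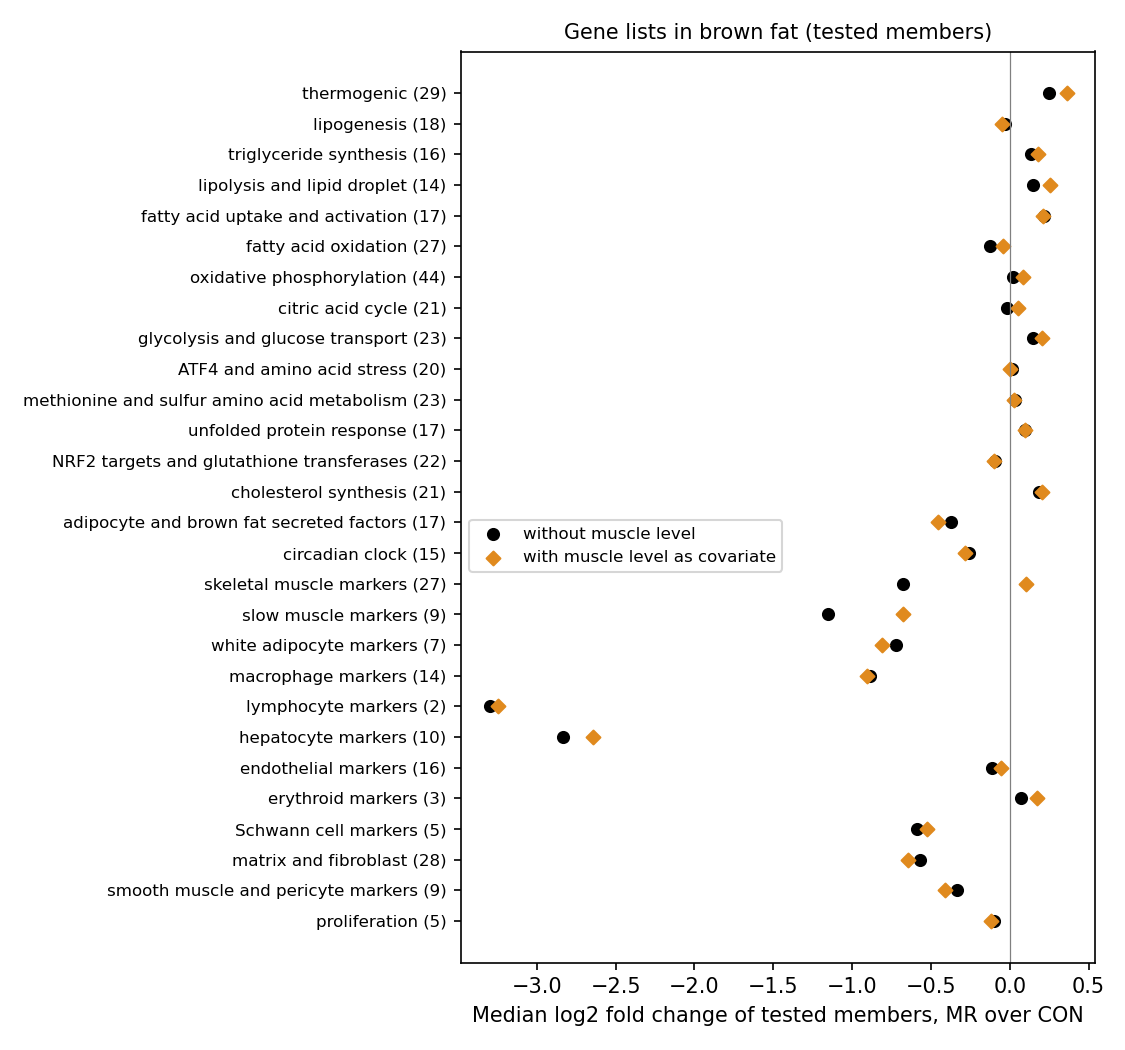
Median log2 fold change, MR over CON, of the tested members of each gene list in BAT, without (black) and with (orange) the muscle level as a covariate. The number of tested members is in brackets. Skeletal muscle markers shift most between the 2 fits among the lists of 10 or more genes, at -0.68 and 0.10. The muscle level is the mean of these same markers, so their shift is built into the fit. The thermogenic list lies at 0.25 and 0.36.

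Of the 75 genes called with the muscle level alone, 32 were higher and 43 lower in MR, and the 6 with the smallest p are given here. Serpine2, a secreted protease inhibitor, had 9.51, 15.2 and 20.9 CPM in MR, against 16.1, 26.1 and 57.3 CPM in CON. The diets overlapped, and the log2 fold change was -1.01 ± 0.31 without and -1.13 ± 0.14 with the muscle level (SE, adjusted p = 0.164 and 0.00127). Muscle would bring 25.8 percent of its mean BAT level and 26.7 percent of that of Gadd45b, a stress-response gene that stood at -1.67 ± 0.28 (adjusted p = 0.00861). The matrix protein Dpt (-1.19 ± 0.18), the Wnt inhibitor Nkd1 (-1.95 ± 0.30) and Cdsn (-2.14 ± 0.38) were also lower, and Derl1, which takes misfolded proteins out of the endoplasmic reticulum, was higher (0.96 ± 0.16). All 6 were called in each of the 12 fits that leave out 1 library and keep the muscle level. They were chosen by the smallest p in that same model, so this persistence is not a further result.

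The diet effect in BAT was set against that in inguinal white fat of the same animals by a test of the difference itself. Of 11884 genes tested in the joint fit of 24 libraries, 3 passed (0.0252 percent), 2 with a positive difference (0.0168 percent) and 1 with a negative one (0.00841 percent). None of the 3 was called in BAT. D3Bwg0562e stood at 0.04 in BAT and -3.45 in IWAT (difference 3.49 ± 0.61, SE, edgeR adjusted p = 0.0286). Endou stood at 0.48 in BAT and -1.85 in IWAT (difference 2.33 ± 0.36, adjusted p = 0.0139), and Lgr6 at 0.38 in BAT and 4.51 in IWAT (difference -4.13 ± 0.67, adjusted p = 0.0139). With the animal as a block edgeR called 0 genes (adjusted p = 0.116, 0.131 and 0.116 for D3Bwg0562e, Endou and Lgr6), limma voom without the block called 6, and without IWAT CON3114 39 did.

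None of the 24 leading BAT genes passed the test of the difference. The smallest p-values among them belonged to Slc22a2 (-1.78 in BAT and 0.21 in IWAT, difference -1.99 ± 0.50) and Tmem45b (-2.64 in BAT and -0.14 in IWAT, difference -2.50 ± 0.67), both with an adjusted p of 0.262. Ucp1 stood at 0.85 in BAT and 3.18 in IWAT (difference -2.33 ± 0.65, adjusted p = 0.293). In IWAT 3 libraries stood apart from the others (median Spearman correlation 0.628 to 0.719). Without those 3 libraries 10 genes passed, among them Tmem45b (adjusted p = 0.0375).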

How the data were processed

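Tags from the 3' ends of transcripts were measured with SOLiD SAGE in 12 BAT libraries. Per the labels, fragments mapped uniquely to mouse RefSeq genes were used, and the submitters' processing notes name mm10, GRCm38.p1 and DESeq. No aligner or counter is named there (not given in the sources used here). Raw count tables as deposited hold whole tag counts per gene symbol (26608 genes) and library without normalization, and these counts were used. The deposited values normalized with DESeq were not used here.

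Genes passing filterByExpr (minimum count of 10) were tested by quasi-likelihood in edgeR 4.0.16 (glmQLFTest, R 4.3.3), with TMM scaling, Benjamini-Hochberg adjustment over all tested genes and a threshold of 0.05. SE is the absolute log2 fold change over the square root of F. CPM uses the TMM-scaled library sizes, and marker levels are mean log2 CPM with a prior count of 2. The muscle level entered a further fit as a covariate. Each library is 1 animal, so within BAT there is no pairing. BAT and IWAT share animals, per the labels. The deviations of same-animal libraries from their group means correlated at 0.0178 on average (-0.132 to 0.313), and 2 of 12 animals correlated best with their own. Depth was 5252688 to 13117537 tags per BAT library. Alternatives were DESeq2 1.42.0, limma voom 3.58.1, other scalings and filters, other covariates and leaving out libraries.

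The named genes are the 12 largest increases and 12 largest decreases among genes called without and with the muscle level and in all 12 fits that leave out 1 library (mean of at least 20 tags in the higher group, properly named). Added were up to 4 called members of each list or the 2 with the smallest p, 10 preset genes, up to 6 genes lost and 6 gained with the muscle level, and the 4 most abundant muscle markers. Other genes named were chosen after their values were seen. The comparison, the gene lists and the rules were chosen with earlier results of these data known. Coordinates and promoters come from RefSeq on GRCm38.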

Additional observations from a re-analysis of the deposited data

Results flagged for a closer look

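In each group of 6 libraries, the highest and the lowest value of the named genes and marker levels were set against the others with Dixon's test at the 95 percent level. For normally distributed values chance flags about 1 in 20 groups, but genes were taken as untransformed CPM, which need not be so distributed. Of 198 groups 31 were flagged, 13 of them through CON3106 and 6 through MR3116. The share flagged is therefore not by itself an excess over chance. Flags of 1 library are not independent of each other.

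CON3106 stood above the other CON libraries in its hepatocyte (6.26, next 2.21), macrophage (3.06, next 1.81) and lymphocyte marker levels (3.52, next -0.52, mean log2 CPM). Its CPM was also far above the next CON library for Apoa1 (371, next 6.31), Cd79a (230, next 3.06), Coro1a (85.2, next 4.82), Ctss (48.8, next 13.9) and Gsta3 (186, next 29.2). The same held for Psat1 (25.0, next 5.81), Cdk1 (7.71, next 2.97), Rrm2 (4.89, next 2.25), Pcx (211, next 166) and Mfsd2a (0.689, next 0.217).

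MR3116 stood above the other MR libraries in Bmp8b (12.0 CPM, next 5.504), Dio2 (60.2, next 26.5), Gmpr (682, next 322), Acsl3 (115, next 68.4), Ldha (16250, next 9939) and Slc3a2 (71.2, next 40.5). MR3109 was the highest MR library in Dusp4 (44.7 CPM, next 23.2), Gpam (112, next 73.1), Loxl1 (153, next 97.1) and Mylk (64.6, next 43.1). MR3101 was the highest in Mfsd2a (10.2 CPM, next 3.71), Asns (297, next 188) and Ccl6 (3.06, next 1.68), MR3102 in Lep (11.1, next 4.90) and MR3113 in Tnnt3 (245, next 84.3). Among CON libraries, CON3107 was the highest in Chn1 (135 CPM, next 76.6), CON3112 in Eno3 (306, next 102) and CON3114 the lowest in Hspa12a (1.37, next 2.63).

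The diet effect differed between BAT and IWAT in a direct test for D3Bwg0562e (3.49 on the log2 scale), Endou (2.33) and Lgr6 (-4.13). Both fats came from the same animals, and with the animal as a block all 3 calls were lost (adjusted p = 0.116, 0.131 and 0.116). That of D3Bwg0562e was also lost without the 3 IWAT libraries that stood apart (0.0541).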

How the results depend on the processing

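Against 120 of 10791 genes called in BAT, DESeq2 called 326 of 18019. In edgeR the muscle level as a covariate gave 193, the hepatocyte level 75 and the macrophage level 20. Without the library over 3 times the median muscle level, which is CON3112, 66 were called, and without CON3106 and CON3112 (chosen after seeing the data) 45. Leaving out 1 library gave 50 to 111, with 50 without MR3104, 63 without CON3114, 66 without MR3101 or CON3112, 71 without CON3103 and 79 without MR3102. With the muscle level (193), leaving out 1 library gave 95 to 218, and leaving out CON3106, chosen after seeing the data, gave 121. The muscle difference of 1.10 ran from 0.37 to 1.90 with 1 library left out and from 0.16 to 1.25 with other measures, with no exact permutation p under 0.206. The cause of these shifts was not tested beyond the levels given.

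For the difference between BAT and IWAT (3 genes), a replicate block for the animal left 0, limma voom 6, the stricter filter 1 and the fit without the 3 IWAT libraries that stand apart 10, and leaving out 1 library gave 1 (BAT MR3102) to 39 (IWAT CON3114). No paired analysis was possible within BAT because each animal gave 1 library.

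No named gene that was called in BAT turned its sign in any setting run. The signs that turned were of genes that did not pass, all to positive values. With limma voom these were Atp2a1 (1.62), Ckm (1.71), Eno3 (0.58), Myl1 (0.51), Mylpf (1.01), Myoz2 (0.11), Tnni1 (0.023) and Tnnt3 (0.60), and with the muscle level Atp2a1 (0.40) and Ckm (0.48). Without CON3112 they were Atp2a1 (0.46), Ckm (0.72), Eno3 (0.053), Myl1 (0.61) and Mylpf (0.27), and without CON3106 and CON3112 Atp2a1 (0.69), Ckm (0.57), Eno3 (0.54), Myl1 (0.93), Mylpf (0.57), Cd79a (0.27) and Psat1 (0.57). Without CON3106 alone Cd79a (0.27) and Psat1 (0.40) turned, and without MR3104 Myl1 (0.06). With 1 library left out the range was -0.75 to 0.46 for Atp2a1, -4.29 to 0.27 for Cd79a, -0.67 to 0.72 for Ckm, -1.29 to 0.053 for Eno3, -0.39 to 0.61 for Myl1, -1.15 to 0.27 for Mylpf and -0.75 to 0.40 for Psat1. With the muscle level and without CON3106 these were Apoa1 (0.070), Atp2a1 (0.44), Cd79a (0.36), Ckm (0.26), Mylpf (0.0062) and Psat1 (0.24). With the hepatocyte level they were Apoa1 (0.15), Cd79a (0.45) and Psat1 (0.40), and with the macrophage level Apoa1 (1.01), Cd79a (2.08), Coro1a (1.05), Psat1 (0.91) and Rrm2 (0.15). Depth limits genes with few tags, such as Mfsd2a in CON.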

Other observations

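The genes of this section were chosen after their values were seen, among those called in BAT. Some of them are receptors or enzymes of hormone and cyclic AMP signalling. Nr4a2, a nuclear receptor induced by cyclic AMP, had 3.67, 5.22 and 6.83 CPM as the lowest, median and highest in MR, against 1.71, 2.23 and 3.06 CPM in CON, without overlap. Its log2 fold change was 1.17 ± 0.22 (SE, n = 6 each, edgeR adjusted p = 0.0229, called in 9 of the 12 fits that leave out 1 library). Pde7b, which breaks down cyclic AMP, had 3.71 to 6.69 CPM in MR and 1.61 to 3.53 CPM in CON (1.13 ± 0.24, adjusted p = 0.0396, called in 1 of 12). The thyrotropin receptor Tshr had 3.38 to 6.39 CPM in MR and 6.15 to 13.6 CPM in CON (-0.998 ± 0.22, adjusted p = 0.0421, called in 2 of 12). Sucnr1, the receptor of succinate, had 3.06 to 8.91 CPM in MR and 9.55 to 27.6 CPM in CON (-1.68 ± 0.32, adjusted p = 0.0237, called in 9 of 12).

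Energy sensing and vessel genes were also among the calls. Prkaa1, the catalytic alpha 1 subunit of AMP-activated kinase, had 50.8, 66.5 and 73.7 CPM in MR, against 30.2, 34.3 and 44.1 CPM in CON, with no overlap (0.86 ± 0.14, adjusted p = 0.0100, called in 12 of 12 fits). Sgpl1, the lyase of sphingosine phosphate, had 201 to 493.02 CPM in MR and 77.3 to 156 CPM in CON (1.32 ± 0.23, adjusted p = 0.0153). The vessel growth factor Angpt1 had 2.82 to 8.32 CPM in MR and 12.9 to 19.5 CPM in CON (-1.42 ± 0.24, adjusted p = 0.0114), and the water channel Aqp1 had 39.3 to 63.6 CPM in MR and 68.4 to 155 CPM in CON (fold 0.500, SE of the log2 fold change 0.20, adjusted p = 0.0297, called in 7 of 12). The creatine kinase Ckb had 38.8 to 62.6 CPM in MR and 26.1 to 34.1 CPM in CON (0.76 ± 0.15, adjusted p = 0.0237, called in 7 of 12).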
